A study of Mus musculus with 30 samples.

Results

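The genes described here are the lysosomal cathepsins, the lysosome-associated membrane proteins (LAMPs) and the subunits of the vacuolar proton pump. They were taken by gene symbol: a cathepsin symbol of Cts with 1 further letter, Lamp1, Lamp2 or Lamp3, or a symbol that begins with Atp6v0 or Atp6v1. The rule gave 39 genes of the 18781 genes measured, namely 16 cathepsins, 3 LAMPs, 7 subunits of the membrane part of the pump (V0) and 13 of its cytosolic part (V1). A gene was represented by the probe set with the highest mean among those that name 1 gene. Ctsb, Ctsm and Atp6v0a4 lie only on probe sets that name a second gene as well, and no value is given for them.

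The samples came from male C57Bl/6 mice (C57Bl/6 J in the methods of the study) of 10 to 12 weeks, kept on chow, which either had free access to food (fed) or had their food withdrawn for 24 h (fasted). RNA of liver (LIV), of skeletal muscle (SM) and of the epididymal fat pad, a white adipose tissue (WAT), was hybridized to Affymetrix gene arrays, with 5 mice and 5 arrays in each of the 6 groups. The mice were wild-type according to the methods of the study. Values are log2 intensities, so a difference of 1 is a doubling, and levels are compared only within a gene, never between genes.

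Each tissue carried its own markers. The mean of the hepatocyte markers was 12.5 to 12.7 on the liver arrays, that of the muscle fibre markers 12.2 to 12.4 on the muscle arrays, and that of the adipocyte markers 11.3 to 12.0 on the WAT arrays. The array labelled fed LIV 4 and the array labelled fasted SM 5 stood apart from their groups. Their mean correlations with the other arrays of the group were 0.987 and 0.98, and fasted SM 5 had a lymphocyte marker mean of 7.89 against 3.82 to 4.08 on the other muscle arrays. Both were left out, which leaves 28 arrays. Values with all 30 arrays are given where they change a call of the 39 genes or of genes named from the lysosomal lists below. On fasted SM 3 the epididymal gene Lcn8 reached 8.11, against 3.5 to 3.75 on the other muscle arrays. Adam7 reached 5.62 there, against 2.61 to 2.92. This array was kept, and calls in SM of the 39 genes and of the named list genes that are lost without it are given below. Calls of cell type markers that are on none of the lysosomal lists were not checked in either setting. The adipocyte marker mean differed among the muscle samples, from 8.29 to 10.0 in the fed and from 8.38 to 9.17 in the fasted mice.

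Lysosomes are acidic organelles that break down proteins, lipids and sugars delivered by endocytosis and autophagy. Cathepsins are their proteases, most of them with a cysteine in the active centre. LAMPs cover the inner face of the limiting membrane, and the proton pump acidifies the lumen by coupling ATP hydrolysis in V1 to proton transport through V0. When nutrients are scarce, autophagy supplies substrate to lysosomes, and transcription factors of the MiT/TFE family, such as TFEB, bind E-box motifs in the promoters of many lysosomal genes.

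RefSeq promoters of build GRCm38.p6 were listed for 30 of the 39 genes, as 32 promoters, and the 250 bases before the start were searched. The E-box CACGTG, which reads the same on both strands, was present in 7 of these 32 promoters (Ctsa, Ctsd, Ctsf, Ctsl, Lamp1, Atp6v0b and Atp6v1a) and in 6.02% of all 32851 promoters. The longer TCACGTG, which contains the first motif and was searched on both strands, was found in 5 of the 32 (the same genes without Ctsf and Ctsl) and in 3.13% of all. TGTTTAC, a motif bound by forkhead factors, was found on either strand in 2 of the 32 (Atp6v1b1 and Lamp3) and in 3.17% of all. A match of letters is a description of the sequence and not evidence of binding.

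The promoters of 6 genes are shown as a description, and a link between motif and change was not tested. Ctsf rose on fasting in WAT, LIV and SM. Ctsl rose most in SM, and Atp6v1a moved in opposite directions in WAT and SM but was called in neither. Ctsd and Lamp1 hold the motif more than once and were called in no tissue, and Ctss, called in LIV, holds none. Of the other called genes, Ctsc and Atp6v0e2 hold no CACGTG, and Atp6v0d2 and Atp6v1h have no listed promoter. Each line gives the 250 bases before the start, 5′ to 3′, in lower case with CACGTG, or TCACGTG or its reverse complement where present, in capitals. They lie at chr19:4854915-4855164 on the plus strand (Ctsf), chr13:64370521-64370770 on the minus strand (Ctsl), chr16:44139260-44139509 on the minus strand (Atp6v1a), chr7:142387828-142388077 on the minus strand (Ctsd), chr8:13158911-13159160 on the plus strand (Lamp1) and chr3:95526536-95526785 on the plus strand (Ctss).
Ctsf: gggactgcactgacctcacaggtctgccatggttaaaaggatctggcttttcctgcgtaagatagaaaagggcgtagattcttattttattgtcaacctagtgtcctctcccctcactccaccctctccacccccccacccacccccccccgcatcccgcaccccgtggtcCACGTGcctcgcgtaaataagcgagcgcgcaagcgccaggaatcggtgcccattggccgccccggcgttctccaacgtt
Ctsl: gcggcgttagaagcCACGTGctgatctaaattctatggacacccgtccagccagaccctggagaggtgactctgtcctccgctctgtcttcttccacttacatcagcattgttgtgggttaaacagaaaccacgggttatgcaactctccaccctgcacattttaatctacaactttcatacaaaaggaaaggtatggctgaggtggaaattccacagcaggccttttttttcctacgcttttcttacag
Atp6v1a: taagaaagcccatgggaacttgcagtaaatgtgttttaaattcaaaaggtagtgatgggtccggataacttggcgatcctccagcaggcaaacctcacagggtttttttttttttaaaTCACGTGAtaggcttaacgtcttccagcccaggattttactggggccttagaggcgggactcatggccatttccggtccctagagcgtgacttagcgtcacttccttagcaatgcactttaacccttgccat
Ctsd: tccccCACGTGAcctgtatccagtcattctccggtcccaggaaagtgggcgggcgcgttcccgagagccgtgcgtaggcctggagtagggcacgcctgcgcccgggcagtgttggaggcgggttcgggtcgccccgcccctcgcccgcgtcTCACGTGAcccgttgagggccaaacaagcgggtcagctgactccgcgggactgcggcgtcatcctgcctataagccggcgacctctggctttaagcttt
Lamp1: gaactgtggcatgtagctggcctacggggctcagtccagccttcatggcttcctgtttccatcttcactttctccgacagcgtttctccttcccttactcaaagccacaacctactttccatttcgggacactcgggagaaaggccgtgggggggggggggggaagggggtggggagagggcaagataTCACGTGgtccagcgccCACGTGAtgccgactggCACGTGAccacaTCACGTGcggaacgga
Ctss: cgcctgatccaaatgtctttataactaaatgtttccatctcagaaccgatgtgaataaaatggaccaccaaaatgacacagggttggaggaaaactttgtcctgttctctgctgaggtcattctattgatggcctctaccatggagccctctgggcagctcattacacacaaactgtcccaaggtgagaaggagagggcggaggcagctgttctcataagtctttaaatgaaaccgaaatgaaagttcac
In Ctsf the single E-box lies 79 bases before the listed start, in Ctsl 236 bases and in Atp6v1a 131 bases. The Ctsl stretch ends in a run of t and c followed by cag, as the end of an intron can. Whether its listed start is that of the first exon was not checked, so its E-box may not lie in the promoter. Ctsd holds 2 E-boxes, 245 and 98 bases before the start. Lamp1 holds 4, at 61, 45, 28 and 15 bases.

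Cysteine cathepsins changed on fasting in all 3 tissues, and single subunits of the proton pump changed in WAT and SM. A gene was called at an adjusted p under 0.05 (limma, adjusted by Benjamini-Hochberg over all probe sets) and a change of at least 1.3-fold, which is 0.379 on the log2 scale. In WAT, Ctsf and Atp6v0d2 rose and Ctsc and Atp6v0e2 fell. These are 2 genes up and 2 down of 39, where 7.99% of all genes were called up and 7.75% down. In LIV, Ctsf rose and Ctss fell, 1 gene in each direction, beside 3.53% and 4.01% of all genes. In SM, Ctsl, Atp6v1h and Ctsf rose and Ctsc fell, 3 up and 1 down, beside 7.8% and 5.78% of all genes. In each tissue and direction the share of the 39 genes, 2.56% to 7.69%, was at or below that of all genes. These shares rest on 1 to 3 genes each, and the share up in SM, 7.69%, was close to 7.8%. Of the 39 genes 32 were called in no tissue, 5 in 1 tissue, Ctsc in 2 and Ctsf in 3, and of all genes 71.4% were called in no tissue, 21.3% in 1, 6.25% in 2 and 1.02% in 3.

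**Figure D1:**
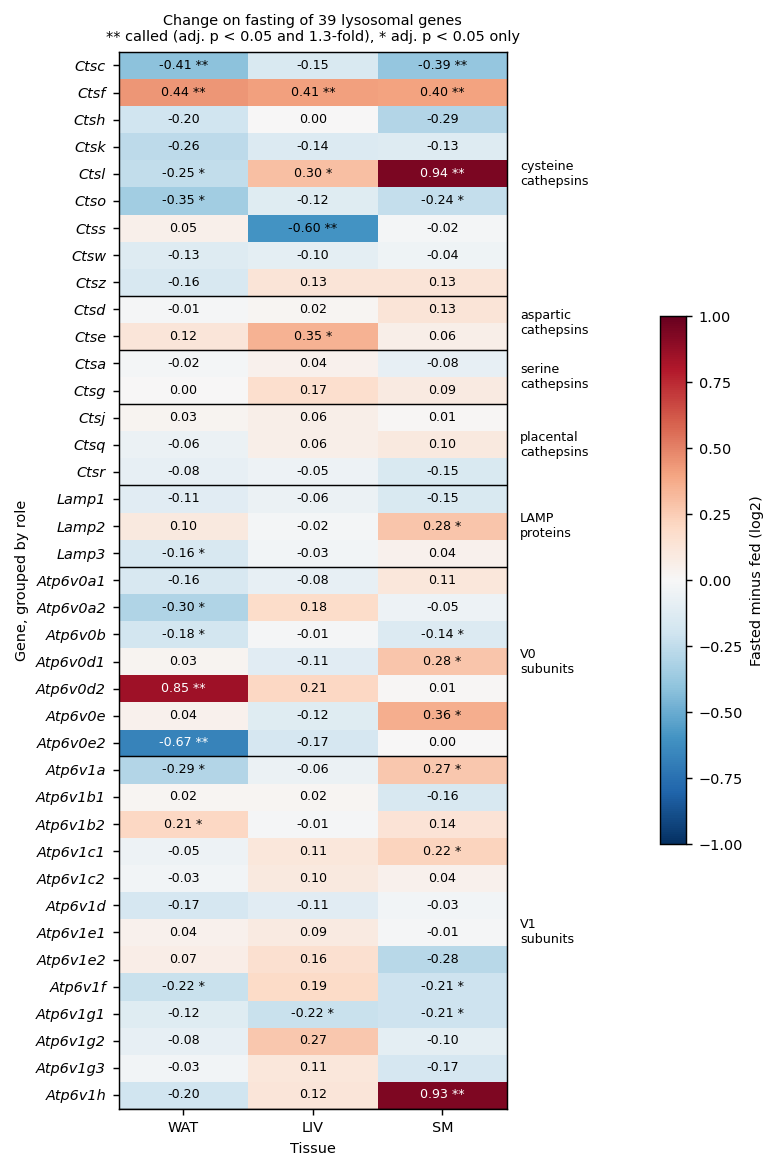
Change on fasting (fasted minus fed, log2) of the 39 genes in WAT, LIV and SM, grouped by role, with colour and printed number giving the same value. The called cells number 4 in WAT, 2 in LIV and 4 in SM, and Ctsf is the gene called in all 3 tissues.

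At an adjusted p under 0.05 without a minimum fold, 3 genes rose and 9 fell in WAT (16.3% and 14.6% of all genes), 3 rose and 2 fell in LIV (8.55% and 6.91%), and 8 rose and 5 fell in SM (14.4% and 11.9%). The median change of the 39 genes was -0.08 in WAT, 0.02 in LIV and 0.00 in SM, beside 0.01, 0.03 and 0.00 for all genes. Of the 39 genes, 27 were above the median of all values in their mean level, and the 12 dim genes include the placental cathepsins, Ctse, Ctsg, Ctsw and Lamp3. Among these 27 the falls in WAT came to 8, where 21.8% of all genes above the same median fell. The rises came to 2, where 25.2% rose. The median sets a lower bound only, so these shares are not matched for level. In SM the 27 had 8 rises and 5 falls, beside 23.2% and 17.2%.

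Fed and fasted arrays did not overlap for 8 genes in WAT, 6 in LIV and 13 in SM, which are 20.5%, 15.4% and 33.3% of the 39 genes. Among all genes the shares came to 21.6% in WAT, 17.3% in LIV and 22.9% in SM, so WAT and LIV were near the background and SM was above it. This background was not matched for level: 27 of the 39 genes were above the median level, beside 10615 of all 18781 genes.

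In the fed mice many of the genes differed in level between tissues. Muscle had the lowest levels for 15 of the 39 genes, in that all its fed arrays lay below all fed arrays of WAT and LIV, which held for 14.6% of all genes. Fed WAT was above both other tissues for 9 genes (18.2% of all genes), fed LIV for 5 (14.8%) and fed SM for 2 (17.5%), namely Atp6v1d and Atp6v1g1. The widest span was that of Ctsh, an aminopeptidase among the cathepsins, with means of 10.97 ± 0.05 in LIV (SD, n = 4), 8.75 ± 0.17 in WAT (SD, n = 5) and 7.35 ± 0.30 in SM (SD, n = 5). Atp6v0e2 had means of 8.20 ± 0.09 in WAT and 7.96 ± 0.11 in SM, and 5.11 ± 0.34 in LIV. Ctsl was highest in LIV at 11.57, followed by WAT at 11.12 and SM at 10.26, and no array of one tissue overlapped another. Atp6v0b and Atp6v1c1 were at nearly the same level in all tissues, with spans of 0.11 and 0.08 between the means.

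Among the cysteine cathepsins, Ctsf, a broadly expressed endoprotease, was the gene that rose in all tissues. In WAT it was at 7.87, 7.77, 7.65, 7.67 and 7.81 in the fed and at 8.18, 8.24, 8.26, 8.11 and 8.15 in the fasted mice. In LIV it was at 7.36, 7.51, 7.44 and 7.47 in the fed and at 7.86, 7.92, 7.89, 7.87 and 7.72 in the fasted mice. In SM it was at 7.10, 7.19, 7.19, 7.23 and 7.13 in the fed and at 7.43, 7.59, 7.60 and 7.67 in the fasted mice. Every fasted array was above every fed array of the same tissue. The change was 0.44 in WAT (SE 0.05, adjusted p 5.42e-07), 0.41 in LIV (SE 0.06, adjusted p 9.39e-06) and 0.40 in SM (SE 0.06, adjusted p 5.13e-06), that is 1.35-fold, 1.33-fold and 1.32-fold. No difference of the change between tissues was called for Ctsf. Of all genes 79 were called up in all 3 tissues. In SM the change lay close to the minimum fold: it was 0.35 with all 30 arrays, 0.37 without fasted SM 4 and 0.37 with cyclic loess scaling, all under the threshold of size, with adjusted p of 5.49e-05, 6.38e-05 and 2.38e-05.

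Ctsl, an abundant endoprotease that degrades proteins taken up by autophagy, changed in different directions. In SM it was at 10.36, 10.22, 10.32, 10.19 and 10.19 in the fed and at 10.95, 11.20, 11.29 and 11.34 in the fasted mice. The groups were far apart, with a rise of 0.94 (SE 0.08, adjusted p 3.51e-10), or 1.92-fold, the largest change of the 39 genes in SM. The arrays of the other tissues were chosen after their values were seen. In LIV the fed arrays were at 11.62, 11.51, 11.56 and 11.59 and the fasted ones at 11.89, 11.82, 11.72, 12.04 and 11.90. In WAT the fed arrays were at 11.13, 11.16, 10.99, 11.23 and 11.11 and the fasted ones at 10.70, 10.98, 10.93, 10.79 and 10.97. The groups did not overlap in either tissue, and the changes were smaller than 1.3-fold, at 0.30 in LIV (adjusted p 0.00723) and -0.25 in WAT (adjusted p 0.0104). The changes differed between the tissues: SM exceeded LIV by 0.64 (adjusted p 9.79e-05) and WAT lay below SM by 1.19 and below LIV by 0.55. Of 13 macrophage markers Cd163 and Cd68 rose in SM, with list means of 5.98 to 6.38 in the fed and 6.05 to 6.54 in the fasted mice, and of 12 muscle fibre markers none was called; the part of these cells in the rise was not tested. In fasted SM Ctsl thus reached 11.2 ± 0.17 (SD, n = 4), close to the fed WAT mean of 11.12.

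Ctss, an endoprotease of antigen-presenting cells, fell in LIV. It was at 6.93, 6.87, 7.35 and 7.06 in the fed and at 6.60, 6.41, 6.11, 6.41 and 6.75 in the fasted mice, without overlap. The change was -0.60 (SE 0.13, adjusted p 0.00201), while it was 0.05 in WAT and -0.02 in SM, and the fall in LIV differed from the change in WAT (by 0.64, adjusted p 0.011) and in SM (by 0.58, adjusted p 0.0294). Macrophage markers fell in LIV together with Ctss. Of 13 such markers measured 6 fell (Adgre1, Csf1r, Lyz2, Fcgr1, C1qb and Aif1) and none rose, and the mean of the list was 6.72 to 7.08 on the fed and 6.31 to 6.72 on the fasted arrays. Of 4 markers of Kupffer cells, the resident macrophages of the liver, Clec4f fell by 0.55 and Timd4 by 0.68, and the list mean was 6.93 to 7.51 in the fed and 6.50 to 6.88 in the fasted mice. In tissue RNA, fewer cells of a type and less RNA per cell cannot be told apart, and the part of these cells in the fall of Ctss was not tested.

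The call of Ctss in LIV depended on the muscle arrays, since the groups share 1 estimate of the spread. With all 30 arrays the change was -0.66 with an adjusted p of 0.122, and with fasted SM 1 left out in place of fasted SM 5 it was -0.60 with an adjusted p of 0.228. Ctss was at 7.88 on fasted SM 5 and at 5.30 to 5.96 on the other muscle arrays. When each tissue was fitted on its own, with all 30 arrays, the change was -0.66 with an adjusted p of 0.00927. The differences from the other tissues were not called either with all 30 arrays (0.71 from WAT, adjusted p 0.254, and 1.1 from SM, adjusted p 0.0535) or with fasted SM 1 left out in place of fasted SM 5 (0.64, adjusted p 0.342, and 1.06, adjusted p 0.0902). The difference between SM and LIV was also not called without fed LIV 3, fed SM 5, fasted LIV 3, fasted SM 1 or fasted SM 4, at 0.47 to 0.55 with adjusted p from 0.0538 to 0.0827.

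**Figure D2:**
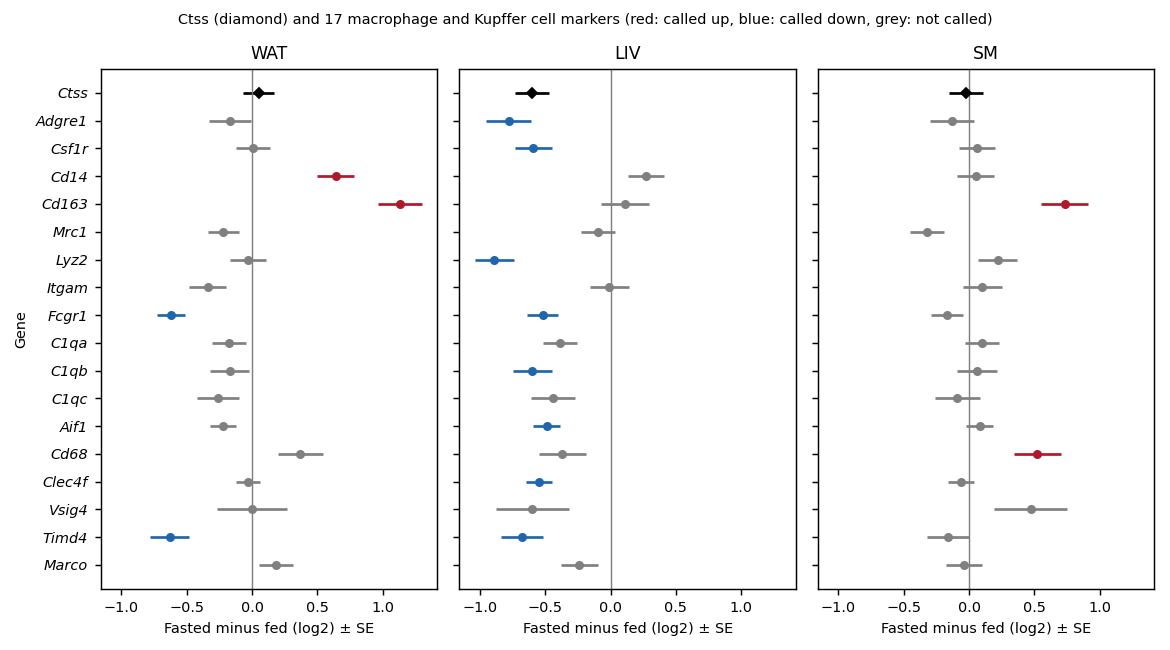
Change on fasting (log2, with SE) of Ctss and of 17 markers of macrophages and Kupffer cells in WAT, LIV and SM. In LIV the change of Ctss, -0.60, lies among the 8 markers that fell, while in WAT and SM it is close to 0.

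Ctsc, a protease that activates the serine proteases of immune cells, fell in WAT and SM. In SM the fed arrays were at 9.42, 9.30, 9.40, 9.01 and 9.15 and the fasted ones at 8.97, 8.72, 8.90 and 8.88, which do not overlap, with a change of -0.39 (SE 0.13, adjusted p 0.0299). The adipocyte marker means were 10.0, 9.44, 9.81, 8.29 and 8.74 on fed arrays 1 to 5. On fasted arrays 1 to 4 they were 9.17, 8.83, 8.87 and 8.38. Fed arrays 1, 2 and 3 were the highest in both Ctsc and the adipocyte mean. Fasted array 1 was above fed arrays 4 and 5 in the adipocyte mean but below them in Ctsc. Of 6 fibroblast markers, 4 fell in SM (Col1a1, Col1a2, Col3a1 and Lum), with list means of 8.67 to 9.06 in the fed and 8.23 to 8.65 in the fasted mice. The part of these cells in the fall was not tested. The call was lost without fed SM 1, 2 or 3 or fasted SM 2, 3 or 4, with changes from -0.40 to -0.34 and adjusted p from 0.0533 to 0.0917, and with all 30 arrays (-0.24, adjusted p 0.277). In WAT the Ctsc groups overlapped (arrays chosen after their values were seen), with 10.89, 10.82, 10.72, 10.83 and 10.58 in the fed and 10.15, 10.63, 10.26, 10.10 and 10.65 in the fasted mice. The change in WAT was -0.41 (adjusted p 0.0122), and it came below 1.3-fold without fasted WAT 1 (-0.36) or fasted WAT 4 (-0.34).

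Ctso, a cysteine protease of little known substrate range, fell by less than 1.3-fold in WAT (-0.35, adjusted p 0.000667) and in SM (-0.24, adjusted p 0.026). Its arrays, chosen after their values were seen, lay at 9.10 to 9.26 in fed and 8.68 to 9.01 in fasted WAT, without overlap. The other cysteine cathepsins passed the test in no tissue. Ctsk, the collagenase of osteoclasts, had changes of -0.26, -0.14 and -0.13 in WAT, LIV and SM, Ctsh of -0.20, 0.00 and -0.29, Ctsz of -0.16, 0.13 and 0.13, and Ctsw, a protease of cytotoxic lymphocytes that is dim in all tissues, of -0.13, -0.10 and -0.04.

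The aspartic and serine cathepsins changed little. Ctsd, the main aspartic protease of lysosomes and of the highest fed level in WAT among its tissues (12.02 ± 0.12, SD, n = 5), changed by -0.01 in WAT (95% interval -0.13 to 0.11), 0.02 in LIV and 0.13 in SM (95% interval 0.01 to 0.26, adjusted p 0.131). Ctsa, a carboxypeptidase that also protects lysosomal glycosidases, changed by -0.02, 0.04 and -0.08. Ctse rose in LIV by 0.35 (adjusted p 0.00769), below 1.3-fold and at a dim level, from 3.98 to 4.33. Ctsg, a granule protease of neutrophils, and the placental cathepsins Ctsj, Ctsq and Ctsr were dim in every tissue, with fed means from 2.75 to 3.32, and passed the test in none.

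**Figure D3:**
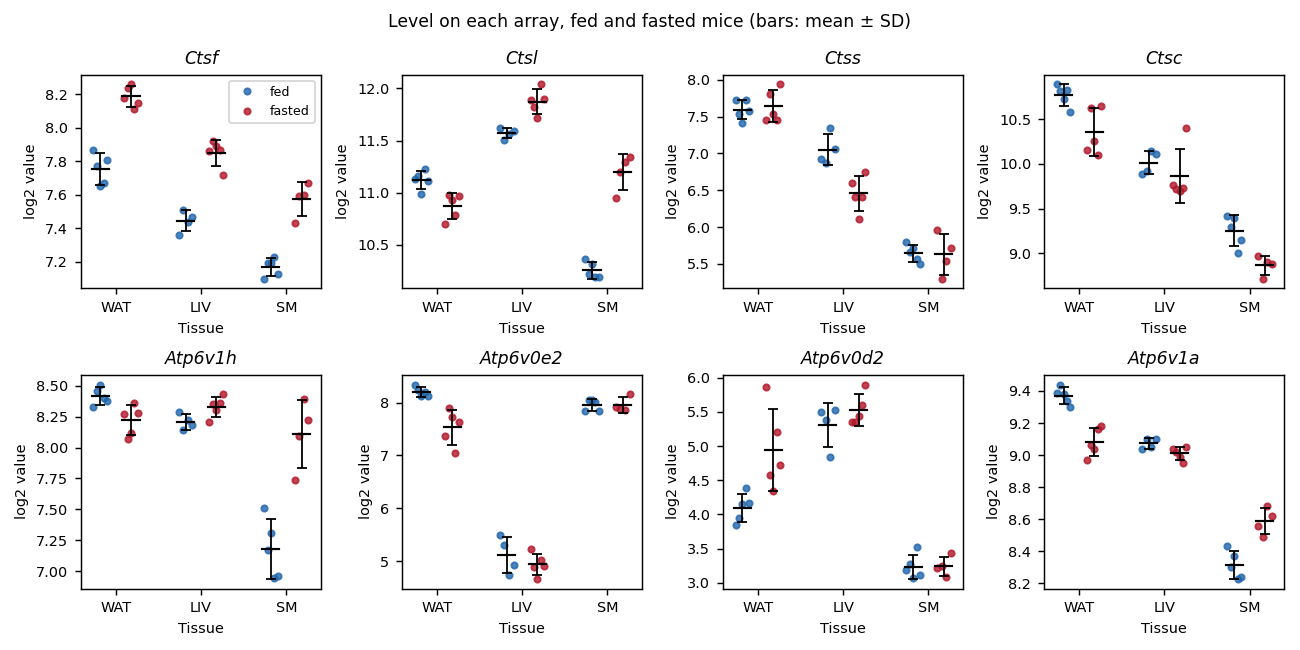
Log2 level of 8 genes on each of the 28 arrays, by tissue, in which blue stands for fed and red for fasted animals, with bars for the mean and SD. The fasted arrays of Ctsf lie above the fed ones in all 3 tissues, and those of Ctsl and Atp6v1h stand clear of the fed arrays in SM.

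Of the LAMPs, Lamp2, whose splice form LAMP2A takes proteins into the lysosome in chaperone-mediated autophagy, rose in SM by 0.28 (SE 0.07, adjusted p 0.00512), under 1.3-fold. Its muscle arrays, chosen after their values were seen, were at 10.27 to 10.60 in the fed and 10.61 to 10.78 in the fasted mice. Its change was 0.10 in WAT and -0.02 in LIV. Lamp1 changed by -0.11, -0.06 and -0.15 in WAT, LIV and SM and passed the test in none. Lamp3 fell in WAT by 0.16 (adjusted p 0.0467) at a dim level, with a fed mean of 2.98.

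The V0 part holds the proton-conducting ring with its a, d and e subunits. The closely related e subunits, Atp6v0e and Atp6v0e2, passed the test in different tissues, and the genes were not tested against each other. Atp6v0e2 fell in WAT, from 8.34, 8.24, 8.13, 8.19 and 8.12 in the fed to 7.37, 7.90, 7.72, 7.05 and 7.63 in the fasted mice, without overlap. The change was -0.67 (SE 0.13, adjusted p 0.000279), and it differed from the change of 0.00 in SM by -0.67 (adjusted p 0.0153), a difference that was not called with all 30 arrays (-0.57, adjusted p 0.051) or with fasted SM 1 left out in place of fasted SM 5 (-0.56, adjusted p 0.0759). Atp6v0e changed by 0.04 in WAT and rose in SM by 0.36 (SE 0.08, adjusted p 0.00101), just under 1.3-fold. It came past 1.3-fold, and was called, with all 30 arrays (0.40, adjusted p 0.00177), with fasted SM 1 left out in place of fasted SM 5 (0.42), and without fed SM 1 (0.39) or fed SM 3 (0.40). Its muscle arrays, chosen after their values were seen, were at 8.84 to 9.16 in the fed and 9.35 to 9.46 in the fasted mice. The change in SM exceeded that in LIV by 0.48 (adjusted p 0.00275).

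The d subunits also passed in different tissues and were not tested against each other. Atp6v0d2, a form known from osteoclasts, kidney and macrophages, rose in WAT from 3.84, 3.94, 4.15, 4.38 and 4.16 in the fed to 5.87, 4.58, 4.34, 5.20 and 4.72 in the fasted mice, groups that overlap in 1 array and that were chosen after their values were seen. The change was 0.85 (SE 0.19, adjusted p 0.00124), and the fasted arrays spread widely at a dim level. In WAT the macrophage markers Cd14 and Cd163 rose and Fcgr1 fell, with list means of 8.06 to 8.18 in the fed and 7.89 to 8.45 in the fasted mice, and of 5 osteoclast markers none was called. The part of these cells was not tested. The change in WAT exceeded that in SM by 0.84 (adjusted p 0.0387), which was not called without fed WAT 1 or 2, fed SM 2 or 4, fasted WAT 1 or 4 or fasted SM 1, 2 or 3, at 0.60 to 0.84 with adjusted p from 0.0561 to 0.0773. Atp6v0d1, the common form, rose in SM by 0.28 (adjusted p 0.00787), under 1.3-fold, with arrays at 8.40 to 8.57 in the fed and 8.67 to 8.82 in the fasted mice, chosen after their values were seen. Its change in SM exceeded that in LIV by 0.39 (adjusted p 0.0129), a call that was lost with all 30 arrays (0.26, adjusted p 0.197) and came under 1.3-fold, at 0.33 to 0.38, without fed LIV 2, fed SM 1 or 5, fasted LIV 4 or 5 or fasted SM 3.

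Of the a subunits, which form the path of the protons, Atp6v0a2 fell in WAT by 0.30 (adjusted p 0.000372), and its change there was below that in LIV by 0.48 (adjusted p 0.000248). Atp6v0a1 changed by -0.16, -0.08 and 0.11 in WAT, LIV and SM. Atp6v0b, a subunit of the ring, fell by 0.18 in WAT (adjusted p 0.00461) and by 0.14 in SM (adjusted p 0.0389), both far below 1.3-fold.

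Among the V1 subunits, Atp6v1h, which couples ATP hydrolysis to proton transport, rose in SM. It was at 7.51, 7.17, 7.31, 6.94 and 6.96 in the fed and at 7.74, 8.09, 8.39 and 8.22 in the fasted mice, without overlap. The change was 0.93 (SE 0.11, adjusted p 1.33e-07), or 1.91-fold, and 0.84 (adjusted p 1.71e-06) without fasted SM 3. It was -0.20 in WAT and 0.12 in LIV, neither past the test, and the change in SM differed from both, by 1.13 from WAT (adjusted p 2.31e-06) and by 0.81 from LIV (adjusted p 0.000262). The fasted SM mean of 8.11 came close to the fed means of LIV, 8.21, and WAT, 8.42.

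Atp6v1a, the catalytic subunit, moved in opposite directions by less than 1.3-fold. It fell in WAT by 0.29 (SE 0.05, adjusted p 5.56e-05) and rose in SM by 0.27 (SE 0.05, adjusted p 0.000308), and the difference between these changes was -0.56 (adjusted p 2.74e-06). Its arrays, chosen after their values were seen, were at 9.30 to 9.44 in fed and 8.97 to 9.18 in fasted WAT, and at 8.23 to 8.43 in fed and 8.49 to 8.68 in fasted SM, so neither pair overlapped. Atp6v1a and Ctsl are the 2 of the 39 genes that passed in opposite directions in 2 tissues, as did 842 of all genes.

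Atp6v1b2, the common partner of Atp6v1a in the catalytic ring, rose in WAT by 0.21 (adjusted p 0.0138), where Atp6v1a fell, and had a change of 0.14 in SM. The V1 subunits of the c, d, e, f and g types changed by less than 0.3 on the probe set used for each. Atp6v1c1 rose in SM by 0.22 (adjusted p 0.0343). Atp6v1g1 fell in LIV by 0.22 (adjusted p 0.0181) and in SM by 0.21 (adjusted p 0.0141). Atp6v1f fell in WAT by 0.22 (adjusted p 0.0138) and in SM by 0.21 (adjusted p 0.0254), and a second probe set of this gene had a change of -0.44 in WAT (adjusted p 2.03e-05), past 1.3-fold. Its changes in WAT and in SM were each 0.40 below that in LIV, and these differences came under 1.3-fold without fed LIV 2 (-0.36 for both) and, between SM and LIV, without fed LIV 3, fed SM 2, 3 or 4 or fasted SM 4 (-0.38 to -0.37). Without fasted SM 3, Atp6v1f (adjusted p 0.0625), Atp6v1c1 (adjusted p 0.12) and Ctso (adjusted p 0.0506) no longer passed in SM. With all 30 arrays Ctso (-0.14, adjusted p 0.388) and Atp6v1c1 (0.18, adjusted p 0.23) did not pass there either. Other changes under 1.3-fold also stopped passing when 1 array was left out. The adjusted p reached 0.128 for Atp6v0b and 0.076 for Atp6v1g1 in SM and 0.0732 for Atp6v1g1 in LIV. In WAT it reached 0.0584 for Atp6v1b2 and 0.179 for Lamp3. Atp6v1d and Atp6v1e1 passed in no tissue, nor did the forms of restricted expression Atp6v1b1, Atp6v1c2, Atp6v1e2, Atp6v1g2 and Atp6v1g3. At an adjusted p under 0.05, of the 20 subunits 2 rose and 5 fell in WAT, none rose and 1 fell in LIV, and 5 rose and 3 fell in SM. In the same order, the shares of all genes were 16.3% and 14.6% in WAT, 8.55% and 6.91% in LIV, and 14.4% and 11.9% in SM. The difference of the change of Atp6v1g2 between SM and LIV, -0.37 (adjusted p 0.138), was called with all 30 arrays (-0.51, adjusted p 0.0422).

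**Figure D4:**
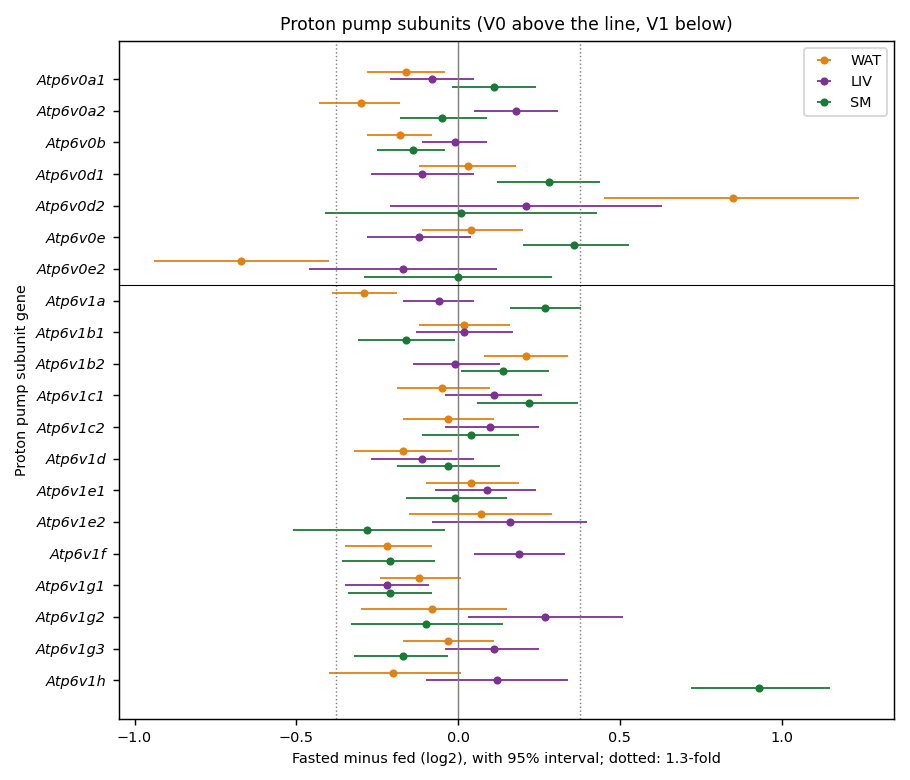
Change on fasting (log2) of the 7 V0 and 13 V1 subunits with its 95% interval in WAT (orange), LIV (purple) and SM (green), with dotted lines at 1.3-fold. Atp6v1h in SM, Atp6v0d2 in WAT and Atp6v0e2 in WAT lie beyond the dotted lines.

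The differences between tissues were tested for each gene. A difference of at least 1.3-fold was called for 4 of 39 genes between WAT and LIV, with 1 higher and 3 lower in WAT (8.18% and 7.9% of all genes). Between WAT and SM it was called for 5, Atp6v0d2 with the higher change in WAT (7.37% of all genes) and 4 with the lower (7.7%). Between SM and LIV it was called for 6, of which 5 had the higher change in SM (7.98%) and Atp6v1f the lower (7.29%).

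A further 7 lists of lysosomal genes were read in the same way. Their counts, and those of the marker lists above, stand beside the shares of all genes that were called. These were 7.99% up and 7.75% down in WAT, 3.53% and 4.01% in LIV, and 7.8% and 5.78% in SM. Of 32 lysosomal hydrolases measured, 2 rose and 7 fell in WAT, 2 fell in LIV, and 3 rose and 3 fell in SM. In WAT the largest changes were falls of Pla2g15, a lysosomal phospholipase, by 0.74 and of Smpd1, acid sphingomyelinase, by 0.53, and a rise of Idua, which degrades glycosaminoglycans, by 0.52. Idua rose also in SM, by 0.55. Scpep1 fell by 0.56 and Asah1, acid ceramidase, by 0.46 in LIV. In SM Acp5 fell by 1.16, but its fed arrays had an SD of 1.11. With all 30 arrays the falls of Acp5 (-0.71, adjusted p 0.201) in SM and of Asah1 in LIV (-0.35, adjusted p 0.0443) were no longer called. The median change of the hydrolases was -0.16 in WAT, -0.12 in LIV and -0.07 in SM.

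Of 24 membrane proteins, 3 rose and 4 fell in WAT, 2 fell in LIV and 3 rose in SM. Npc1, which exports cholesterol from lysosomes, rose by 1.27 in WAT and by 1.14 in SM, more than any of the 39 genes. Laptm4b fell by 0.64 and Mfsd8 by 0.58 in WAT. In LIV, Slc36a1, a proton-coupled amino acid transporter, fell by 0.63 and Laptm5 by 0.48. In SM, Cd68 rose by 0.52, with overlapping arrays, and Ctns, the cystine exporter, by 0.49. With all 30 arrays Laptm5 was no longer called in LIV (-0.55, adjusted p 0.348), and Npc1 was called there as well (0.41, adjusted p 0.009, against 0.33).

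Of 7 partners of the pump, Dmxl2 (by 0.59) and Rogdi (by 0.51), parts of a complex that assembles V1 on V0, rose in WAT, and Dmxl2 (by 0.52) and Atp6ap2 (by 0.39), an accessory subunit, rose in SM; Atp6ap2 was also called in LIV with all 30 arrays (0.39, adjusted p 0.00397). Of 11 genes for delivery of enzymes to lysosomes, 3 fell in WAT: Gnptab, which makes the mannose phosphate tag, by 0.83, Gga2 by 0.79 and Ap1s1 by 0.50. Sort1, a sorting receptor, fell by 0.86 in LIV, and none was called in SM. Of 8 cathepsin inhibitors, none was called in WAT or LIV. In SM, Cstb, an inhibitor of cysteine cathepsins, rose by 0.53, while Serpinb6b fell by 0.63 and Serpinb1a by 0.40. Both falls were lost with all 30 arrays (-0.34, adjusted p 0.337, and 0.08, adjusted p 0.902), which turned the sign of Serpinb1a, and that of Serpinb1a was lost without fasted SM 3 (-0.41, adjusted p 0.0843).

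Of the 4 MiT/TFE factors, Mitf rose in WAT by 0.73 (adjusted p 3.17e-09), the others were not called there, and none was called in LIV or SM. In SM 3 of the 4 rose by less than 1.3-fold, and the median change of the list was 0.26. Of 12 genes of the Ragulator and Rag complexes, which relay amino acid supply to mTORC1 at the lysosomal surface, 3 rose and 1 fell in WAT and 2 rose in SM. Flcn, folliculin, rose by 1.04 in WAT and by 0.66 in SM, its partner Fnip1 by 0.67 in WAT, and Lamtor1, the anchor of Ragulator, fell by 0.86 in WAT. Rragb rose by 0.54 in SM, at a dim level.

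**Figure D5:**
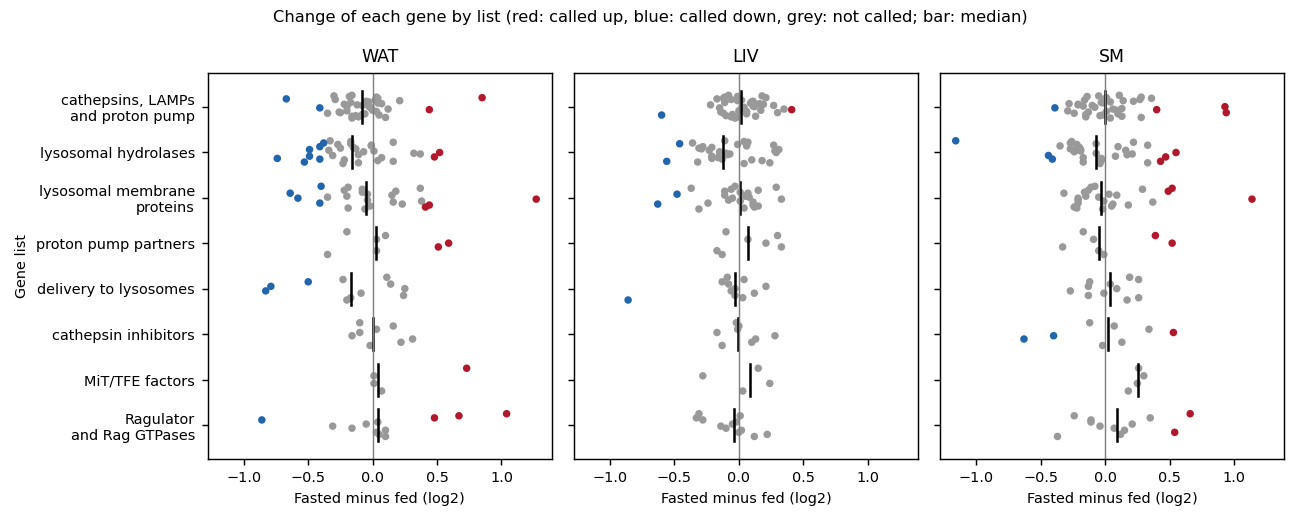
Change on fasting (log2) of each gene of the 39 and of 7 lists of other lysosomal genes in WAT, LIV and SM, with called genes in red (up) or blue (down) and a bar at the median. The medians lie within 0.3 of 0 in every list and tissue, and single genes, such as Npc1 in WAT and SM, lie far from them.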

How the data were processed

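Expression in WAT, LIV and SM of 5 fed and 5 fasted mice was measured on 30 arrays. The deposited values are log2 intensities of 28815 probe sets, which the authors made in Partek by RMA (background correction, quantiles equalized across arrays, median polish of probes), so a change in total mRNA would not be seen. All 30 columns matched a sample (0 did not), and 0 arrays were identical. Of the probe sets, 21153 name 1 gene, 1867 several, and 5795 are not listed in the platform annotation. The study's text names fed liver array 4 and fasted muscle array 1 as outlying; in the deposited values fasted muscle array 5 stands apart, and it was left out with fed liver 4. A linear model with 1 mean per group was fitted with limma 3.58.1 in R 4.3.3, with moderated variances (prior degrees of freedom 4.24). P-values were adjusted by Benjamini-Hochberg over all probe sets at a false discovery rate of 5%. Each group holds 4 or 5 arrays of separate mice, which limits the precision. The procedure was tested on simulated data.

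The genes and lists were chosen with earlier results of these data known. Values on every array were given for called genes without overlap of fed and fasted arrays (up to the 8 largest changes per tissue) and for genes called in all 3 tissues. Of each list, up to 3 called genes per tissue with the largest changes were named. Other choices were made after values were seen. Alternatives were 28 fits without 1 array each and 13 other settings, 1 of which (all arrays, with each tissue fitted on its own) was added after seeing the data. Promoters are from RefSeq, and figures used Python with matplotlib. Scanner intensities before normalization were not used here.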

Additional observations from a re-analysis of the deposited data

Results flagged for a closer look

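For 9 of 234 gene and group combinations (39 genes, 6 groups), 1 array lay far from the rest of its group, where chance alone gives about 1 in 20. Ctsf was at 7.72 on fasted LIV 5, against 7.86 to 7.92 on the other fasted livers, and Ctsc was at 10.40 on the same array, against 9.70 to 9.77. Atp6v0e was at 9.46 on fasted SM 3, against 9.35 to 9.37. Atp6v0b was at 9.43 on fed LIV 2, against 9.64 to 9.66, and Lamp1 was at 11.04 on that array, against 11.08 to 11.09. Ctsz was at 10.78 on fed WAT 3, against 11.01 to 11.09. The dim genes Ctsg (3.08 on fed WAT 2), Atp6v1b1 (3.11 on fasted LIV 3) and Ctsq (2.90 on fed LIV 5) make up the rest.

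The change on fasting differed between tissues for 10 genes, by the test of the difference. Ctsl differed by -1.19 between WAT and SM, by -0.55 between WAT and LIV and by 0.64 between SM and LIV. Atp6v1h differed by -1.13 between WAT and SM and by 0.81 between SM and LIV. Ctss differed by 0.64 between WAT and LIV and by 0.58 between SM and LIV. Atp6v1f differed by -0.40 both between WAT and LIV and between SM and LIV. Differences of 1 pair of tissues each were those of Atp6v0a2 (-0.48, WAT minus LIV), Atp6v0d1 (0.39, SM minus LIV), Atp6v0e (0.48, SM minus LIV), Atp6v0d2 (0.84, WAT minus SM), Atp6v0e2 (-0.67, WAT minus SM) and Atp6v1a (-0.56, WAT minus SM).

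On the array fasted SM 5, which entered no comparison, Ctss was at 7.88, against 5.30 to 5.96 on the other muscle arrays, and Ctsw was at 4.88, against 3.22 to 3.45. On this array 11 of the 39 genes lay above and 8 below all other muscle arrays. On fed LIV 4, also left out, 4 lay above and 17 below all other liver arrays.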

How the results depend on the processing

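The 45 changes and differences of single genes that passed the test were recomputed under 41 alternatives, which gave 1811 values. Of these 1704 kept the direction and stayed called or not called, 79 kept the direction but were no longer called, 28 were called in addition, and 0 reversed. Many of these values could not reverse. The settings of the minimum fold and of the false discovery rate reuse the same change. Leaving out an array of a tissue outside the comparison leaves the change as it was and alters only its p-value. The 45 include changes under 1.3-fold that had passed at an adjusted p under 0.05 but were not called. Such changes counted as kept even where they no longer passed. With all 30 arrays, for example, Ctso in SM was at -0.14 with an adjusted p of 0.388 and counted as kept. In the setting without a minimum fold all such changes counted as called in addition, by construction. Without a minimum fold, 12 genes were called in WAT, 5 in LIV and 13 in SM, and 8 differences between WAT and SM. With a minimum of 1.5-fold, 2 were called in WAT, 1 in LIV and 2 in SM, and 1 difference between WAT and LIV and 2 between SM and LIV. With all 30 arrays, or with fasted muscle array 1 left out in place of array 5, 1 gene was called in LIV, and the latter left 3 differences between WAT and SM, as did a false discovery rate of 1%. Over the 3 tissues, the lists had 17 called hydrolases (48 without a minimum fold, 2 at 1.5-fold), 12 membrane proteins (27 and 4), 4 pump partners (8 and 1), 4 delivery genes (12 without a minimum fold), 3 inhibitors (1 at 1.5-fold and 1 with all 30 arrays and each tissue fitted on its own), 1 MiT/TFE factor (6 without a minimum fold) and 6 Ragulator and Rag genes (13). The median change was -0.16 in WAT without dim probe sets, and in SM it was 0.04 with fasted muscle array 1 left out in place of array 5. Leaving out 1 array at a time gave 3 to 5 calls in WAT, 2 to 3 in LIV and 2 to 5 in SM (2 without fasted SM 4), 3 to 6, 4 to 6 and 4 to 6 differences (WAT and LIV, WAT and SM, SM and LIV), 16 to 18 hydrolases, 11 to 14 membrane proteins, 3 to 5 partners, 4 delivery genes, 2 to 3 inhibitors, 1 MiT/TFE factor, 6 to 8 Ragulator and Rag genes, and medians of -0.09 to -0.05 in WAT, 0.01 to 0.04 in LIV and -0.03 to 0.03 in SM. The cause of these shifts was not tested, except that a higher or lower minimum fold calls fewer or more genes by construction.

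Fed and fasted mice are different animals, and equal numbers did not meet the condition for pairs, a correlation over 0.1 in every pair: the deviations of equally numbered arrays correlated from -0.252 to 0.0509 in WAT, where none of 5 pairs exceeded 0.1, from -0.11 to 0.15 in LIV (2 of 4 pairs) and from -0.00351 to 0.163 in SM (1 of 4 pairs). With the replicate block the median in SM was -0.03, and the block ended the calls of 3 differences, those of Atp6v0d1 (0.34, adjusted p 0.121) and Ctss (0.53, adjusted p 0.114) between SM and LIV and of Atp6v0d2 (0.87, adjusted p 0.0522) between WAT and SM. The study names 5 fasted and 5 control mice for the 3 tissues, but the main fit took all arrays as independent. Across tissues, equally numbered arrays of fasted WAT and LIV correlated from -0.0839 to 0.156 (3 of 5 pairs over 0.1). Each other pair of tissues had at most 1 such pair. With equal numbers taken as 1 mouse and the mouse as a random block, the correlation was 0.027 and no single gene lost its call.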
